A study of Mus musculus with 6 samples.

Results

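Glycogen is the branched glucose store of muscle and liver, and 9 genes of its synthesis and breakdown were followed here in the mouse left ventricle. They are 9 of the 13384 genes counted, namely Ugp2, Gys1 and Gbe1 of synthesis, Pygm and Pygb of breakdown, Phka1, Phkb and Phkg1 of phosphorylase kinase, and Ppp1r3a, a targeting subunit of protein phosphatase 1. All 9 were counted in every library. They were selected on earlier results of the same contrast, in which Ppp1r3a and Phkg1 were among the genes higher in the knockout, so the differences between genotypes are given as a description and without a test. Bulk polyA RNA came from the left ventricles of 3 Cygb(-/-) mice, which lack the globin cytoglobin in all tissues, and of 3 wild-type littermates, Cygb(+/+). All 6 adult mice, controls included, were given angiotensin II (Ang II), a hormone that raises blood pressure, by a subcutaneous osmotic pump that ran for 2 weeks at 1.5 mg/kg/day, and no mouse without the infusion was analysed here. Each library came from 1 mouse. The deletion was global, so a difference cannot be assigned to one cell type of the heart, and the study's question was which transcripts differ between the genotypes under this stress.

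Glycogen is built from UDP-glucose by glycogen synthase and the branching enzyme, on a primer protein called glycogenin. It is taken down by glycogen phosphorylase and further enzymes. Phosphorylase kinase switches phosphorylase on when calcium or cyclic AMP signalling rises, and it does so as a complex of alpha, beta, gamma and calmodulin subunits, of which gamma is catalytic. Protein phosphatase 1 works the other way, switching synthase on and phosphorylase off, and its targeting subunits hold it on the glycogen particle. In heart muscle glycogen serves as a reserve fuel when work or oxygen supply changes quickly.

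Libraries held between 23190864 and 30354857 counts, and each member had at least 323 counts in every library (Phkg1 in wild-type replicate 2), so counting error was small beside the spread between animals. Levels are counts relative to the library total (CPM), scaled by TMM, a normalisation that centres the fold changes of most genes on 0. Fold changes and standard errors (SE) are on the log2 scale, knockout over wild type, from edgeR's quasi-likelihood model over all genes, in which the median gene stood at -0.0046. Cygb was not analysed here, so the genotypes were taken from the labels. The 7 heart muscle markers (Myh6, Actn2, Ryr2, Tnnt2, Tnni3, Myl2 and Mb) were abundant, summing to 51458 to 62259 CPM in the knockout and 54557 to 67091 CPM in the wild type. Among them only Ryr2 was without overlap, at 2137 to 2844 CPM in the knockout and 1207 to 1612 CPM in the wild type. Its log2 fold change was 0.70 (SE 0.16, edgeR adjusted p = 0.0711), in the direction of Ppp1r3a and Phkg1. Of all genes, 11.8% were higher without overlap. The 3 measured atrial muscle markers summed to 753, 48.5 and 75.6 CPM in wild-type replicates 1, 2 and 3. They summed to 32.7 to 42.3 CPM in the knockout, lower and without overlap. In wild-type replicate 2 the 6 fibroblast markers summed to 1885 CPM against 830 to 971 CPM elsewhere. The 4 macrophage markers summed to 113 to 142 CPM in the knockout and 99.6 to 108 CPM in the wild type. These sums did not overlap, in the direction of Ppp1r3a, Phkg1 and Phkb, but each of the 4 markers overlapped on its own. The 4 blood markers summed to 664 and 473 CPM in wild-type replicates 1 and 3 against 224 to 298 CPM elsewhere. Of 11 skeletal muscle markers 2 were analysed here, at 34.7 to 50.5 CPM in the knockout and 46.8 to 60.3 CPM in the wild type. No gene of these 10 marker lists passed edgeR's adjusted threshold of 0.05, and the part of any cell type in the values below was not tested. In bulk tissue, fewer cells of a type and less RNA per cell cannot be told apart.

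Ppp1r3a and Phkg1 stood farthest apart between the genotypes, and the 250 bases before their RefSeq transcription starts are shown to set the 2 promoters side by side. RefSeq promoters (build GRCm38.p6) were matched for all 9 genes, with 2 starts for Ugp2. Both sequences lie on the minus strand, at chr6:14755275-14755524 for Ppp1r3a and chr5:129879089-129879338 for Phkg1, and hold no annotated exon. The Ppp1r3a window abuts the 5′ end of its GENCODE gene, while the Phkg1 window lies inside the gene as GENCODE draws it, whose 5′ end is at 129898549. They are printed 5′ to 3′. Capitals mark matches to the E-box (CANNTG, bound by basic helix-loop-helix factors) and to CTA and TAG spaced by any 4 bases. This pattern, called a MEF2 match below, is looser at those 4 bases than the site of the muscle factor MEF2, where they are A or T. Sites with other end bases were not searched.
Ppp1r3a: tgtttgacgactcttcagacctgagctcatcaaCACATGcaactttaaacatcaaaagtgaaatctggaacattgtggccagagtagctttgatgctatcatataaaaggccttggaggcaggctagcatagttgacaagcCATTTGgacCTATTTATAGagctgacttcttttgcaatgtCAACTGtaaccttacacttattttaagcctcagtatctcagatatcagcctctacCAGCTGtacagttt
Phkg1: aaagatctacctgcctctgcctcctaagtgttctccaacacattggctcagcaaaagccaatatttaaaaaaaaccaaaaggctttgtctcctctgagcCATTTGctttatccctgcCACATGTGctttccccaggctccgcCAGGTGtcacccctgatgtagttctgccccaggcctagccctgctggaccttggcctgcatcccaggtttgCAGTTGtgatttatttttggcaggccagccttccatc
The Ppp1r3a sequence held 4 E-boxes and 1 MEF2 match, CTATTTATAG, which began 100 bases before the start. It also held 2 TATAAA matches, 1 of them on the opposite strand within that MEF2 match. The Phkg1 sequence held 5 E-boxes, 2 of them overlapping, and no MEF2 match. On both strands of all 32851 promoter windows of the same length, 66.2% held CANNTG, 3.20% held a MEF2 match and 12.4% held TATAAA. The share with A or T at all 4 middle bases was not counted. Phka1 held the other MEF2 match among the 9 genes, CTAAAACTAG, which has a C among the 4 middle bases. The GC box GGGCGG, present in 32.7% of all windows, was in those of Gys1, Phkb, Ugp2 and Phka1 and in neither printed sequence. GC content was 40.4% before Ppp1r3a and 50.8% before Phkg1, against a median of 52.4% over all windows. These matches describe letters and not bound sites.

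Over the 9 genes, transcripts of Ppp1r3a and Phkg1 were about doubled in knockout ventricles, Phkb stood between, and the synthesis genes and phosphorylases lay within the spread between animals. Of the 9, 7 had a fold change above 0 and 2 below, with a median of 0.20 and a range from -0.13 to 1.14. Of all genes 49.5% were above 0. edgeR's adjusted threshold of 0.05 was passed by 2 (Ppp1r3a and Phkg1), both higher, where 0.0897% of all genes passed as higher and 0.0224% as lower. An unadjusted edgeR p under 0.05 was reached by 3 members, all higher, against 10.3% of all genes higher and 9.09% lower. In DESeq2 the same 2 genes passed, against 2.68% of all genes higher and 2.03% lower. The groups did not overlap for 3 members (Ppp1r3a, Phkg1 and Phkb), all higher, against 11.8% of all genes higher and 10.5% lower. As the members were picked with this contrast known, nothing is read from these counts. The same holds for calls of members in the other fits below, which use the same libraries.

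**Figure D1:**
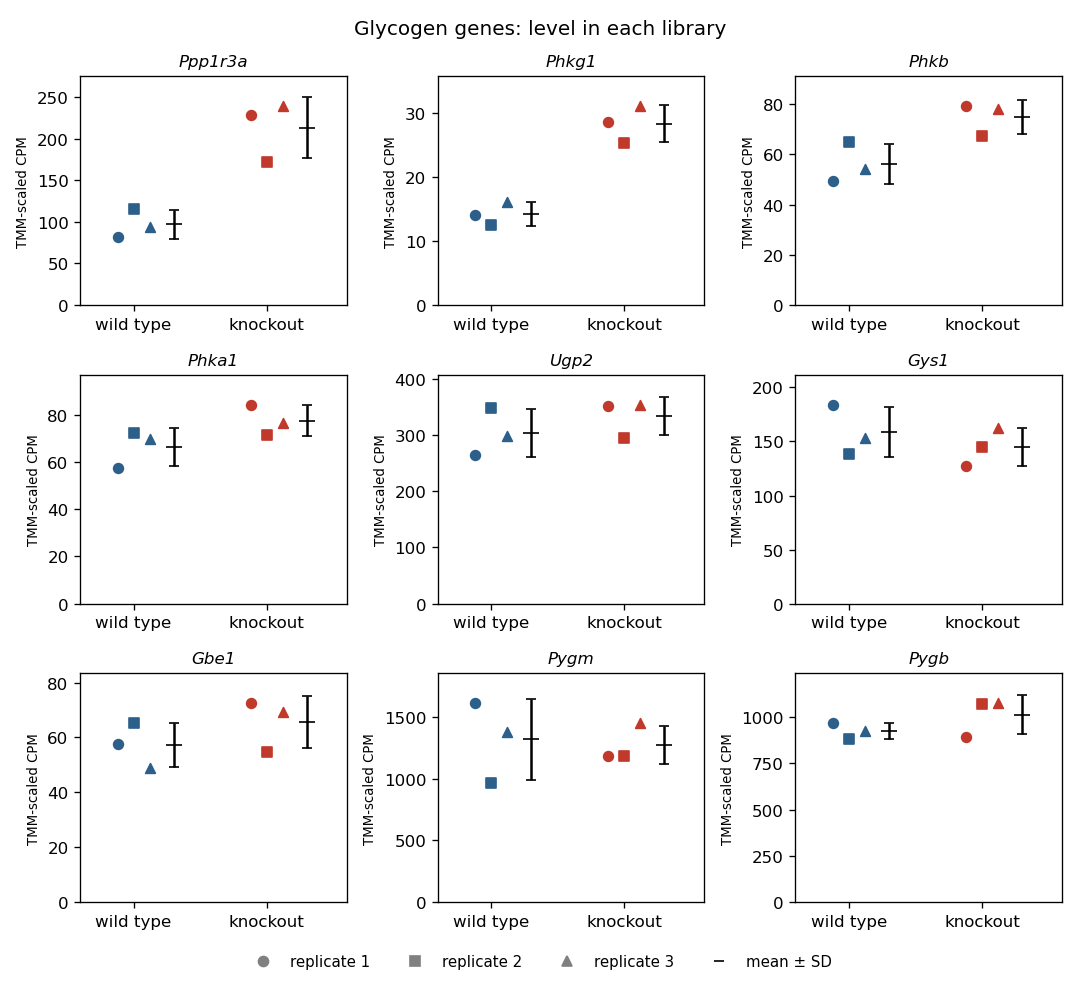
Level of each of the 9 genes in each library, in TMM-scaled CPM on a linear axis from 0, with 1 point per mouse and the mean ± SD beside it (n = 3 each). Knockout and wild-type points are separate for Ppp1r3a, Phkg1 and Phkb and overlap for the other 6 genes.

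The targeting subunit Ppp1r3a (Entrez 140491, chr6:14713977-14755274) encodes the form of the subunit known from striated muscle. In knockout replicates 1, 2 and 3 it was at 229, 172 and 239 CPM, and the wild-type replicates in the same order gave 81.7, 116 and 93.6 CPM. The lowest knockout library was replicate 2 and the highest wild-type library was also replicate 2, and a clear gap separated them. Means were 213 ± 36.2 CPM and 97.0 ± 17.2 CPM (SD, n = 3 each), a 2.20-fold difference and a log2 fold change of 1.14 (SE 0.16). Leaving out each library in turn gave 1.03 to 1.29, all higher in the knockout. In those fits the gene passed edgeR's adjusted threshold without knockout replicate 2 or without wild-type replicate 2 (1.29), and did not pass when any one of the other 4 libraries was left out. Calls over all genes moved as well, with 982 genes higher without wild-type replicate 2 and 0 to 11 in the other 5 fits.

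Phkg1 (Entrez 18682, chr5:129863421-129898549) encodes the catalytic gamma subunit of phosphorylase kinase in muscle. It was at 28.7, 25.4 and 31.1 CPM in the knockout and at 14.1, 12.5 and 16.2 CPM in the wild type. All 3 knockout libraries were above all 3 wild-type libraries, and the spread within a group was small. The means of 28.4 ± 2.88 and 14.3 ± 1.84 CPM differed 1.99-fold, with a log2 fold change of 0.99 (SE 0.15). Leaving out each library gave 0.91 to 1.09; the gene passed the adjusted threshold without wild-type replicate 2 (0.91) or 3 (1.09) and not without any of the other 4. Of its annotated exon bases 630 of 6509 (9.68%) are shared with Sumf2 on the opposite strand, and whether counting used strand is not given in the sources used here. Knockout ventricles had 8.36 ± 1.10 CPM of Sumf2 and wild-type ventricles 8.62 ± 1.29 CPM, with a log2 fold change of -0.04 (SE 0.19).

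Phkb (Entrez 102093, chr8:85840959-86061376), the regulatory beta subunit of the same kinase, was higher in the knockout by less. It was at 79.2, 67.2 and 78.1 CPM in the knockout and 49.5, 64.9 and 54.3 CPM in the wild type. Knockout replicate 2 and wild-type replicate 2 nearly met, while the other 4 libraries lay well apart. The log2 fold change was 0.41 (SE 0.14), and 0.54 without wild-type replicate 2, the only one of 18 alternative fits in which Phkb passed the adjusted threshold. In that edgeR fit 7.34% of all genes passed as higher and 6.49% as lower, so the call came where calls rose over the whole table.

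Phka1 (Entrez 18679, chrX:102513975-102644246), the alpha subunit of muscle, overlapped between genotypes. It was at 84.4, 71.5 and 76.7 CPM in the knockout and 57.3, 72.3 and 69.7 CPM in the wild type. Only wild-type replicate 1 lay clearly below the rest, and the log2 fold change was 0.22 (SE 0.13).

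Among the synthesis genes, Ugp2 (Entrez 216558, chr11:21321138-21371201) makes UDP-glucose. It was at 352, 295 and 355 CPM in the knockout and 264, 349 and 299 CPM in the wild type, so wild-type replicate 2 matched the higher knockout libraries and the groups overlapped (0.13, SE 0.14). Gys1 (Entrez 14936, chr7:45434844-45456619), the glycogen synthase of muscle, was at 128, 145 and 162 CPM in the knockout and 184, 139 and 153 CPM in the wild type. Its highest and its lowest library, wild-type replicate 1 and knockout replicate 1, were in opposite groups, but the other 4 were interleaved (log2 fold change -0.13, SE 0.14). Gys1 shares 310 exon bases (6.47%) with Ruvbl2 on the other strand, which stood at -0.13 (SE 0.16). Gbe1 (Entrez 74185, chr16:70313949-70569716), the branching enzyme, was at 72.5, 54.8 and 69.4 CPM in the knockout and 57.7, 65.2 and 49.0 CPM in the wild type. Knockout replicate 2 fell among the wild-type libraries, and the fold change was 0.20 (SE 0.15).

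Of the phosphorylases, Pygm (Entrez 19309, chr19:6384399-6398459) encodes the muscle enzyme and Pygb (Entrez 110078, chr2:150786735-150831758) the one first named from brain. Pygm was at 1183, 1184 and 1449 CPM in the knockout and 1615, 968 and 1383 CPM in the wild type. The wild-type libraries spanned the whole knockout range, and the log2 fold change was -0.06 (SE 0.18). Its sign rested on single libraries, at -0.23 when wild-type replicate 2 was left out and 0.11 when wild-type replicate 1 was. Pygb was at 891, 1071 and 1076 CPM in the knockout and 968, 879 and 926 CPM in the wild type. Knockout replicate 1 lay within the wild-type range while the other 2 knockout libraries lay above it (0.13, SE 0.13).

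The differences of several members followed the GC content of their transcripts, as those of all genes did. When the 13106 genes with an annotated transcript were split into 5 classes of equal size by GC content, the median log2 fold change ran from 0.20 in the lowest class through 0.11, 0.01 and -0.10 to -0.24 in the highest. In the lowest class 79.3% of genes were above 0, and in the highest 15.8%. The trend did not separate the genotypes fully: relative to the mean of the 6 libraries, genes of the lowest class had a median deviation of -0.25 and -0.16 in wild-type replicates 1 and 3 but 0.08 in wild-type replicate 2, beside 0.16, 0.04 and 0.13 in knockout replicates 1, 2 and 3.

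Ppp1r3a (36.7% GC), Ugp2 (39.1%), Gbe1 (42.3%) and Phkb (43.3%) belonged to the lowest GC class, and Phka1 (47.5%) to the next. Wild-type replicate 1 was the lowest library for 4 of these 5, the exception being Gbe1, for which it was wild-type replicate 3. Phkg1 (50.0%) was in the middle class, where the median was 0.01. Pygb (54.5%), Pygm (54.9%) and Gys1 (55.4%) were in class 4, and wild-type replicate 1 was the highest library for Pygm and Gys1.

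**Figure D2:**
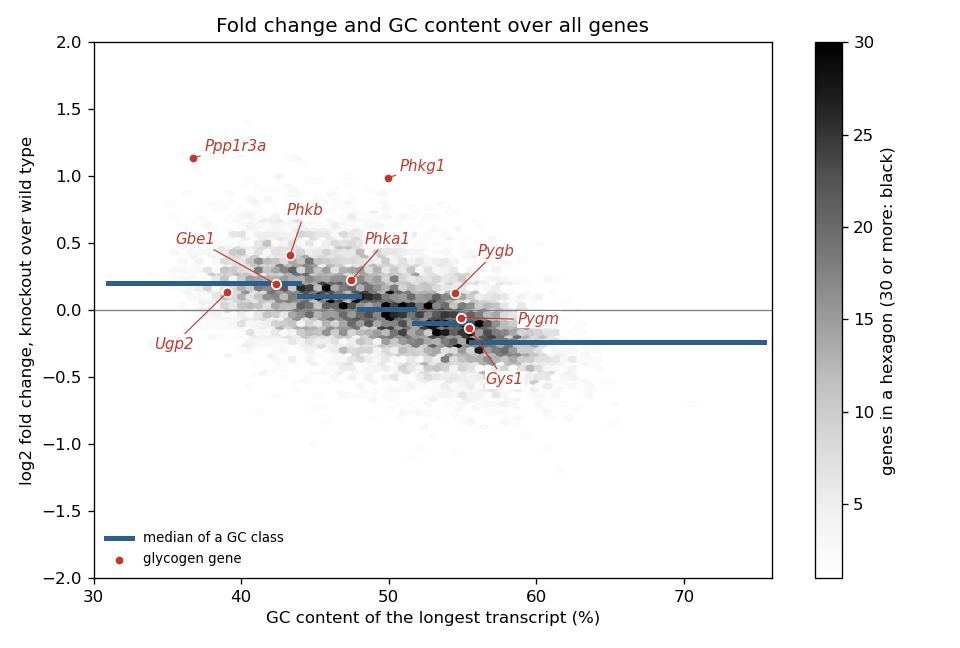
GC content of the longest transcript in percent (x) against log2 fold change, knockout over wild type (y), for 13106 genes, of which 6 fall outside the axes; shading counts genes, blue bars are medians of the 5 GC classes and red points the 9 glycogen genes. Ppp1r3a and Phkg1 lie far above the medians of their classes (0.20 and 0.01), and the other 7 lie nearer to theirs.

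The trend on GC content and on transcript length was then taken out of every library; Ppp1r3a kept a lead and Phkg1 was almost unaffected. Ppp1r3a then stood at 192, 162 and 202 CPM in the knockout and 105, 107 and 119 CPM in the wild type. The wild-type libraries drew together (SD 7.47 in place of 17.2 CPM), and the difference fell to 1.68-fold (log2 0.75, SE 0.11). Phkg1 was at 1.03 (SE 0.13). These 2 members, picked with this contrast known, also passed edgeR's adjusted threshold in this fit, where 0.202% of all genes passed as higher and 0.172% as lower. When wild-type replicate 1 was also left out, an alternative chosen after seeing the data, Ppp1r3a stood at 0.72 and no longer passed.

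The other AT-rich members moved toward 0, Phkb to 0.18 (SE 0.10), Phka1 to 0.04, Gbe1 to 0.03 and Ugp2 to -0.04. The 3 GC-rich members moved up, Gys1 to 0.02, Pygm to 0.12 and Pygb to 0.23 (SE 0.10). After the removal Pygb was at 957 to 1110 CPM in the knockout and 865 to 916 CPM in the wild type, groups that no longer overlapped. How many of all genes were without overlap after the removal was not counted. The median of the 9 became 0.12, with 8 above 0, where 49.7% of all genes were above 0.

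**Figure D3:**
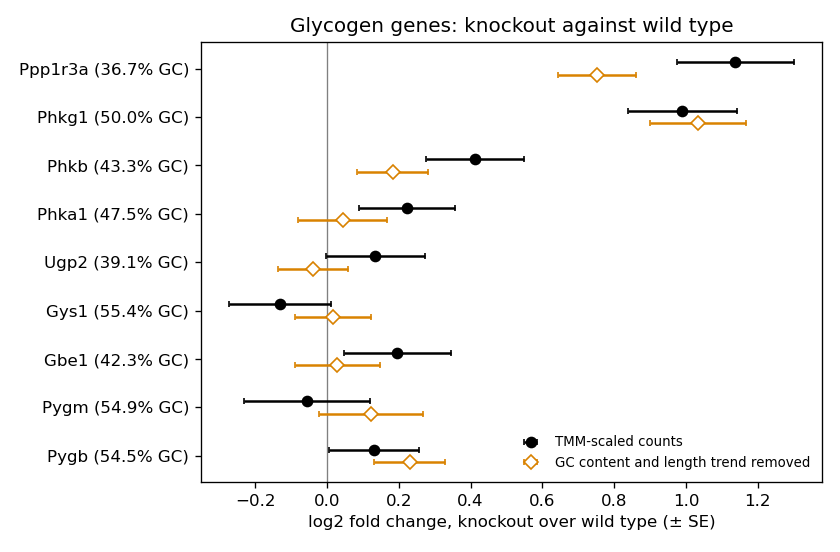
Log2 fold change ± SE, knockout over wild type (x), of the 9 genes (rows, with transcript GC content), from TMM-scaled counts (black circles) and once the GC content and length trend was taken out (open orange diamonds). Phkg1 is near 1 in both, Ppp1r3a goes from 1.14 to 0.75, and the other 7 lie between -0.04 and 0.23 after removal.

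To compare levels between genes, CPM was divided by the length in kb of each gene's longest transcript. Pygm led in the wild type at 460 ± 114 CPM per kb, then came Pygb at 236 ± 11.3, Ugp2 at 113 ± 15.8 and Gys1 at 43.2 ± 6.30. These 4 did not overlap one another over the 6 libraries. Gbe1 (15.3 ± 2.16), Ppp1r3a (13.9 ± 2.47), Phka1 (10.9 ± 1.31) and Phkb (10.5 ± 1.48) followed, and the wild-type ranges of neighbours in that order overlapped, although Ppp1r3a was above Phka1 within each wild-type library. Phkg1 was the lowest of the 9 at 6.01 ± 0.77 CPM per kb. In the knockout Ppp1r3a was at 30.6 ± 5.19 CPM per kb, above Gbe1 (17.6 ± 2.53) in every knockout library, and Phkg1 at 12.0 ± 1.21 came close to Phka1 at 12.7 ± 1.06. The order depends on the length used: by the median length of a gene's transcripts, Pygb (1171 CPM per kb in the wild type) was above Pygm (821), and Phkb (55.5) above Phkg1 (12.3) and Phka1 (11.0).

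The kinase subunits are built into the complex in equal numbers, so their summed transcripts were set side by side on the per-length scale. The gamma genes Phkg1 and Phkg2 summed to 16.2 ± 1.05 CPM per kb in the knockout and 10.9 ± 1.44 in the wild type. The alpha genes Phka1 and Phka2 summed to 17.4 ± 0.72 and 14.6 ± 0.98, and Phkb, the only beta gene, was at 14.0 ± 1.25 and 10.5 ± 1.48. For each of the 3 kinds of subunit all knockout libraries lay above all wild-type libraries, with the GC content and length trend left in. Of all genes taken singly, 11.8% did the same. Phkg1 and Phkb were picked with this contrast known, so the gamma and beta values are no separate result. The sums were not formed after removal. There Phka1, the larger part of alpha, stood at 69.1 to 80.6 CPM in the knockout and 59.1 to 80.8 CPM in the wild type. For comparison, the 3 phosphorylase genes summed to 704 ± 71.5 and 698 ± 125 CPM per kb, which did not separate the genotypes.

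Within paralogue families, expressed as a share of the family's summed CPM per kb in each library, the mix differed between genotypes for the gamma subunits and the targeting subunits. Phkg1 and Ppp1r3a were picked for being higher in the knockout, so their larger shares restate that choice and are no separate result. All shares were taken with the GC content and length trend left in. Phkg1 made up 76.6, 69.6 and 75.6% of gamma transcripts in the knockout and 53.9, 56.4 and 55.8% in the wild type. The remainder is Phkg2, the gamma gene known from liver and testis, which did not pass the test itself (log2 fold change -0.21, SE 0.18, edgeR adjusted p = 0.539). Of the exon bases of Phkg2, 876 of 4000 (21.9%) are shared with Ccdc189 on the opposite strand, so its counts, and the share built on them, are uncertain. The wild-type shares were close together and lower than any in the knockout.

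Ppp1r3a made up 28.8, 28.2 and 32.1% of the transcripts of 6 targeting subunits in the knockout and 10.6, 14.9 and 16.8% in the wild type. Ppp1r3c, also called PTG, was the most abundant of the 6 in every library, at 59.4 ± 3.12% in the knockout and 72.3 ± 4.93% in the wild type. Its own level overlapped between genotypes (log2 fold change -0.26, SE 0.18, edgeR adjusted p = 0.461). Per length, Ppp1r3c exceeded Ppp1r3a 5.35 ± 1.53-fold in the wild type and 2.01 ± 0.21-fold in the knockout (SD, n = 3 each). This ratio too was taken with the trend left in. Its removal took the Ppp1r3a difference between genotypes from 2.20-fold to 1.68-fold. The sum over the 6 subunits ran from 87.6 to 114 CPM per kb in the knockout and from 79.9 to 111 in the wild type, so the total overlapped between genotypes where the Ppp1r3a share did not.

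In the other families the mix overlapped between genotypes. Pygm was 62.9 ± 2.56% of phosphorylase transcripts in the knockout and 65.3 ± 4.98% in the wild type, and Pygl, the liver form, was under 1% in every library. Phka1 was 72.9 ± 4.11% and 74.2 ± 4.27% of the alpha subunits. With the median annotated length Pygm was 38.0% and 40.7% in knockout and wild type, and Pygb made up most of the family.

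**Figure D4:**
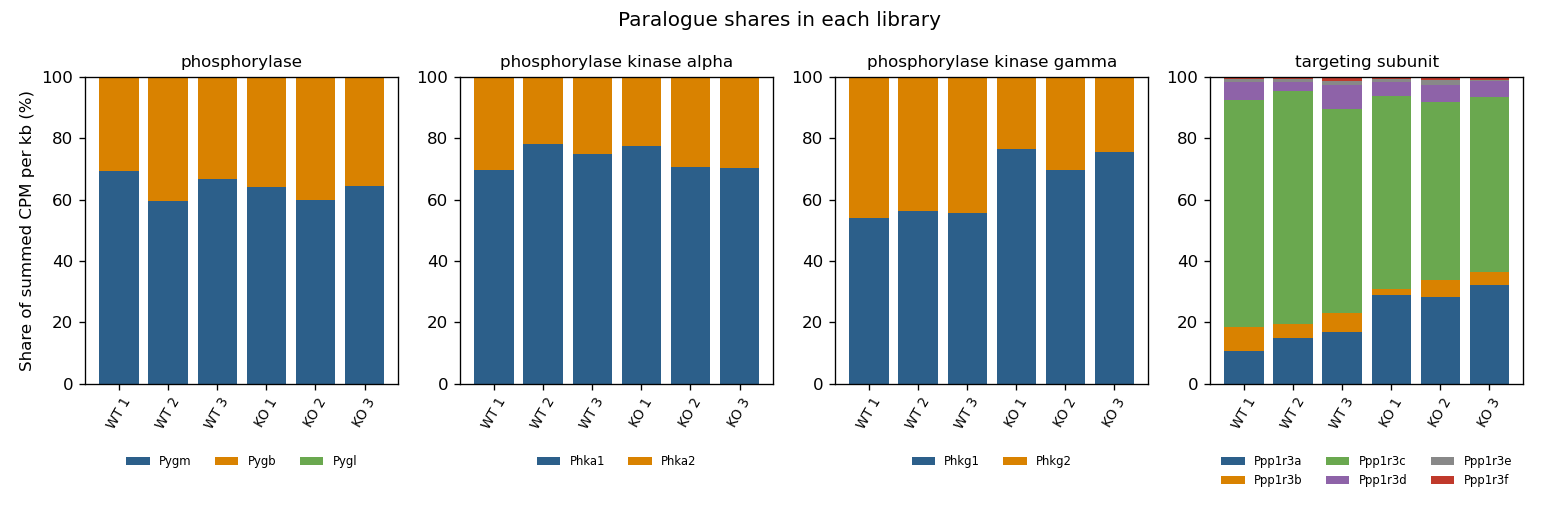
Share of each paralogue in the summed CPM per kb of its family, in percent (y), for the 6 libraries (x; WT wild type, KO knockout) in 4 families. The GC content and length trend is left in. Phkg1 and Ppp1r3a (blue, bottom) take a larger share in every KO library than in any WT library, while the blue shares of Pygm and Phka1 overlap.

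Other genes of glycogen metabolism, listed by function, were tested in the same edgeR fit. Of 34 taken from the list, 0 passed edgeR's adjusted threshold in either direction and 0 passed in DESeq2. Over all genes 0.0897% passed as higher and 0.0224% as lower in edgeR, and 2.68% and 2.03% in DESeq2. At an unadjusted edgeR p under 0.05 there were 2 higher and 1 lower, beside 10.3% and 9.09% of all genes. The fold change was above 0 for 12 and below 0 for 22, beside 49.5% of all genes above 0. The median was -0.09, and 0.00 after the GC content and length trend was removed. Beside 11.8% and 10.5% of all genes, groups did not overlap for 3 higher (Epm2a, Prkaa1 and Prkaa2) and 2 lower (Pgm2 and Gsk3a). Of these, Prkaa1, Prkaa2 and Gsk3a overlapped once the trend was taken out. The reverse held for Gaa, Phka2 and Ppp1ca (higher) and Ppp1r3b (lower), which overlapped before the removal and not after it. The share of all genes without overlap after the removal was not counted, so nothing is read from these changes. Without wild-type replicate 2, 2 of the 34 passed as higher and 1 as lower, beside 7.34% and 6.49% of all genes in that fit. Counts this small among 34 genes are not read as a difference from all genes. Gys2 and Ppp1r3g were not analysed here.

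By role, all 3 synthesis genes lay below 0, at -0.12 (SE 0.12) for Gyg1, the glycogenin primer, -0.08 (SE 0.12) for Pgm1 and -0.29 (SE 0.18) for Pgm2, the phosphoglucomutases. Of the breakdown genes, Pygl, the liver phosphorylase, was at 0.21 (SE 0.23) and Gaa, the lysosomal acid glucosidase, at -0.09 (SE 0.15). Of the 5 other kinase subunit genes 1 lay above 0, Phka2 (0.33, SE 0.16, edgeR adjusted p = 0.268), and 4 below, among them the calmodulin gene Calm3 (-0.36, SE 0.14, edgeR adjusted p = 0.203).

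Of the 8 phosphatase genes 2 lay above 0 and 6 below. Ppp1cb, a catalytic subunit that Ppp1r3a can bind, was at 0.38 (SE 0.15, edgeR adjusted p = 0.190), and at 0.09 after trend removal. Ppp1r3b, the targeting subunit best known from liver, was at 9.76, 21.5 and 21.1 CPM in the knockout and 37.8, 22.2 and 21.3 CPM in the wild type. Replicate 1 stood apart in both groups, low in the knockout and high in the wild type, and the fold change of -0.63 had an SE of 0.33 (edgeR adjusted p = 0.335). Of the 3 genes of glycogen binding and quality, Epm2a, the phosphatase laforin, was at 0.38 (SE 0.18), and 0.36 after trend removal (edgeR adjusted p = 0.278 before removal). Of the 13 kinase genes acting on synthase or phosphorylase kinase 6 lay above 0 and 7 below, with Prkaa2, a catalytic subunit of AMP-activated kinase, at 0.43 (SE 0.14, edgeR adjusted p = 0.141) and at 0.06 after trend removal.

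**Figure D5:**
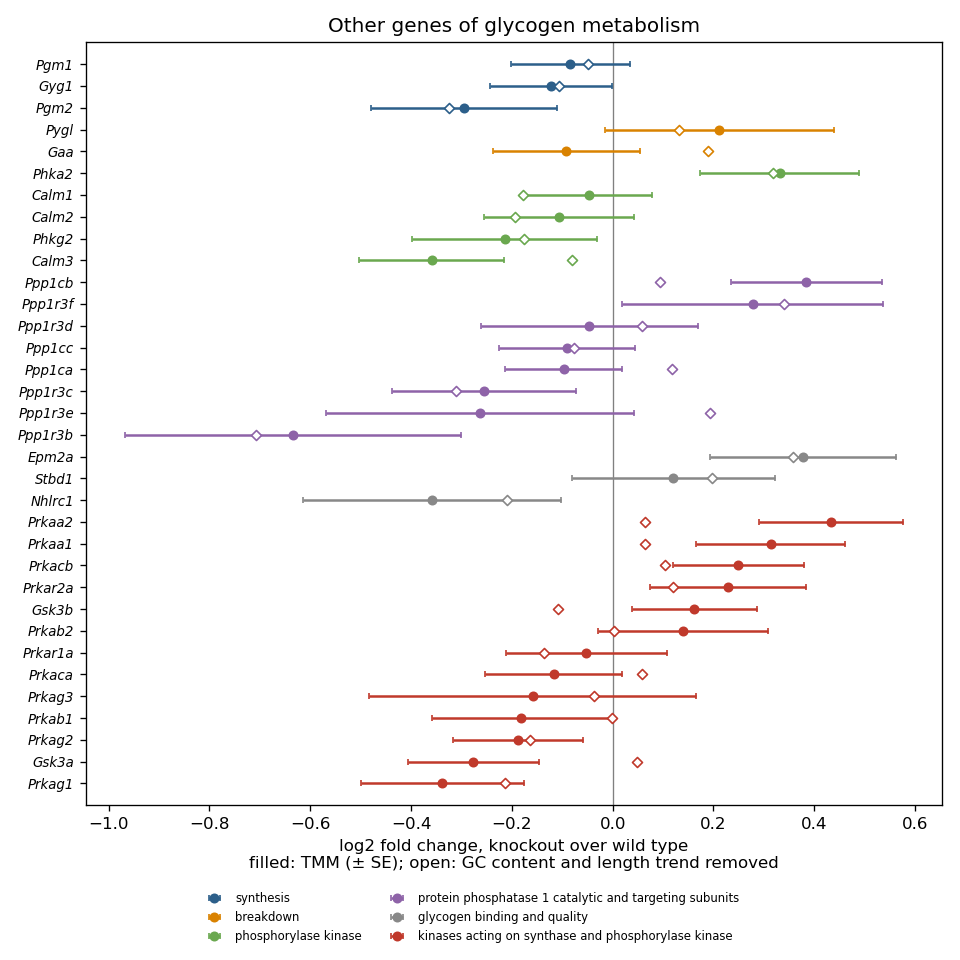
Log2 fold change ± SE, knockout over wild type (x), of 34 other genes of glycogen metabolism (rows, coloured by role), with open diamonds for the value once the GC content and length trend was taken out. None reaches the fold change of Ppp1r3a or Phkg1, which were picked for being higher. The range runs from -0.63 (Ppp1r3b) to 0.43 (Prkaa2), and none passed edgeR's adjusted threshold (adjusted p of 0.141 or more). Over all genes 0.0897% passed as higher and 0.0224% as lower.

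The genes most like Ppp1r3a and Phkg1 over the libraries were taken from 12435 conventionally named genes, by the root mean square difference of log2 CPM after each gene's own mean was removed (6 libraries). For Ppp1r3a these were Zfp970 (0.09), Xpo4 (0.12), Lnpep (0.12), Rif1 (0.12) and Ppip5k2 (0.14), with a transcript GC content between 39.3 and 42.8%. For Phkg1 they were Nr4a3 (0.07), Gsto2 (0.12), Zbtb37 (0.13), Nnt (0.14) and Adra1a (0.14), with a GC content between 41.4 and 51.7%. The difference between Ppp1r3a and Phkg1 themselves was 0.25, which put Phkg1 at rank 70 from Ppp1r3a and Ppp1r3a at rank 82 from Phkg1. Their libraries were ordered differently: wild-type replicate 2 was the highest wild-type library for Ppp1r3a and the lowest for Phkg1.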

How the data were processed

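Left ventricle libraries, 3 knockout and 3 wild type by the labels, were read from the deposited table of unnormalized gene counts. The submitters' processing notes name mm10 and DESeq2; the aligner, counter, annotation and strand use were not given in the sources used here. Each library came from 1 mouse, per the labels. The table held 13384 genes with at least 12 counts in every library.

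All genes were fitted in edgeR 4.0.16 (R 4.3.3) with TMM size factors, the tool's filter on low counts, which removed none, and robust quasi-likelihood tests of knockout against wild type without covariates. Tests were two-sided, with Benjamini-Hochberg adjustment over all genes and a threshold of 0.05. The common biological coefficient of variation was 0.166. The members and all lists were chosen with earlier results of these data known, and members get no p-value.

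Genes were named by rule: all members, the listed other glycogen genes (1 of them is not reported here and is left out of the counts), and the 5 nearest in pattern to Ppp1r3a and to Phkg1 (mean of at least 1 CPM). Transcript length and GC content came from GENCODE M21 (GRCm38), matched by Entrez ID for 97.9% of genes. Trends on both were removed per library by splines with 4 degrees of freedom. Gene coordinates are from GENCODE, and promoters from RefSeq (GRCm38.p6). Scripts were tested on simulated data. Alternatives were size factors by RLE or by upper quartile, other filters (none, or 5 CPM in 3 libraries), DESeq2 1.42.0, limma-voom (limma 3.58.1), older and non-robust quasi-likelihood, the replicate number as a block, the trend removal, and each library left out.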

Additional observations from a re-analysis of the deposited data

How the results depend on the processing

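Over 18 alternative fits Ppp1r3a, Phkg1, Phkb, Pygb and Gbe1 kept a fold change above 0; Phka1 was below 0 in 1, Ugp2 below 0 in 3, Gys1 above 0 in 3 and Pygm above 0 in 4. Ppp1r3a passed the adjusted threshold in 13 and Phkg1 in 14, a description only, as both were picked with this contrast known. The number of members called higher ran from 0 to 3 when each library was left out, in fits that called 0 to 982 of all genes higher (0, 0 and 3 where no member was called, and 982 where 3 were), and was 1 with the GC content and length trend removed and wild-type replicate 1 left out (chosen after seeing the data). Other glycogen genes called ran from 0 to 2 higher and 0 to 1 lower when each library was left out. These fits also have fewer samples; the cause was not tested. With the median transcript length the shares of Pygm, Phkg1 and Phka1 were 38.0%, 79.0% and 55.4% in the knockout and 40.7%, 62.3% and 57.1% in the wild type, by construction of the length. Over all genes 12 were called higher and 3 lower by edgeR, against 352 and 266 by DESeq2, 27 and 23 with the trend removed, and 982 and 869 without wild-type replicate 2. With the replicate block 143 were higher and 92 lower, and 2 members were called. Same-numbered samples correlated at -0.122, -0.0702 and -0.150 in their deviations over 13163 genes, and no sample correlated best with its own number, so the numbers were not used as pairs. Depth was not varied; counting error weighs more for low genes such as Ppp1r3e (28 to 66 counts).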
